A study of Mus musculus with 6 samples.

Results

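The leptomeninges, the thin membranes over the surface of the brain, are built by fibroblasts, and 10 genes known from these cells were followed through RNA from whole mouse cerebellum. The genes were Dcn, Lum, Ogn, Postn, Ptgds, Slc6a13, Aldh1a2, Crabp2, Foxc1 and Foxd1, taken by symbol from the table of counts. All 10 were found among its 41088 entries, and all 10 passed the filter on low counts, as did 15457 genes in all. The tissue came from C57BL/6 pups aged 6 days. The wild type group had 3 animals and the conditional knockout group for SnoN (SnoN cKO) had 3. Skil encodes SnoN, a partner of the Smad proteins that dampens the response of cells to transforming growth factor beta. For the Cre driver and the deleted part of Skil, nothing is stated in the sources used here. Levels are CPM, the count of a gene scaled to a common library size with TMM factors (trimmed mean of M values), and are means ± SD of 3 animals where a ± is printed.

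Meningeal fibroblasts lie in layers. The pia rests on the brain's basement membrane, the arachnoid seals off the cerebrospinal fluid, and the dura lies outside both. The fibroblasts lay down collagen and proteoglycans, carry solutes across the arachnoid barrier, and make retinoic acid and the chemokine Cxcl12, which reach the cells below. The outer granule layer of the cerebellum, where granule neuron precursors divide at this age, lies directly beneath the pia. In bulk tissue, fewer cells of a type and less RNA per cell cannot be told apart.

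Total counts ranged from 12605870 to 17757711 per library. Skil was at 89.5, 87.5 and 88.9 CPM in wild type 1, 2 and 3, against 76.0, 74.7 and 77.5 CPM in SnoN cKO 1, 2 and 3, so each knockout library was below each wild type library. Its log2 fold change was -0.22 (SE 0.04), with an adjusted p of 0.637 over all genes in edgeR. In 2 libraries the counts went against the sex label. SnoN cKO 1, labelled female, had 35 counts of Xist, the transcript of the inactive X chromosome, and 1146 of the Y-linked Ddx3y. SnoN cKO 2, labelled male, had 37467 counts of Xist and 0 of Ddx3y. An exchange of animals and an error in the labels cannot be told apart, and both libraries carry the same genotype label. Below, each library goes by the name that its column carries. SnoN cKO 2 also stood apart in Ttr, the main transcript of the choroid plexus, at 17.3 CPM against 1641 to 3209 CPM in the other 5 libraries. SnoN cKO 3 stood apart in Gm42418, a transcript that overlaps ribosomal RNA, at 39052 CPM against 505 to 6921 CPM elsewhere.

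None of the 10 genes passed edgeR's quasi-likelihood test of the genotypes. Their adjusted p-values lay between 0.654 and 0.961, 0 of 10 passed at an adjusted p under 0.05 and 0 of 10 had an unadjusted p under 0.05. Over all genes tested, 0% passed the adjusted threshold and 7.68% had an unadjusted p under 0.05, with 4.47% lower in SnoN cKO. The log2 fold change of SnoN cKO over wild type was negative for 9 of the 10, against 51.0% of all genes, with a median of -0.12. In no member were the genotypes' libraries fully apart, whereas 6.73% of all genes were lower and 6.95% higher in every SnoN cKO library than in every wild type library. For 9 of the 10 members the SD among the 3 knockout animals was larger than the difference between the group means. SnoN cKO 1 was the lowest of the 6 libraries for 7 members (13.7% of all genes), SnoN cKO 2 for the other 3 (24.6% of all genes), and wild type 1 the highest for 8 (17.2% of all genes).

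**Figure D1:**
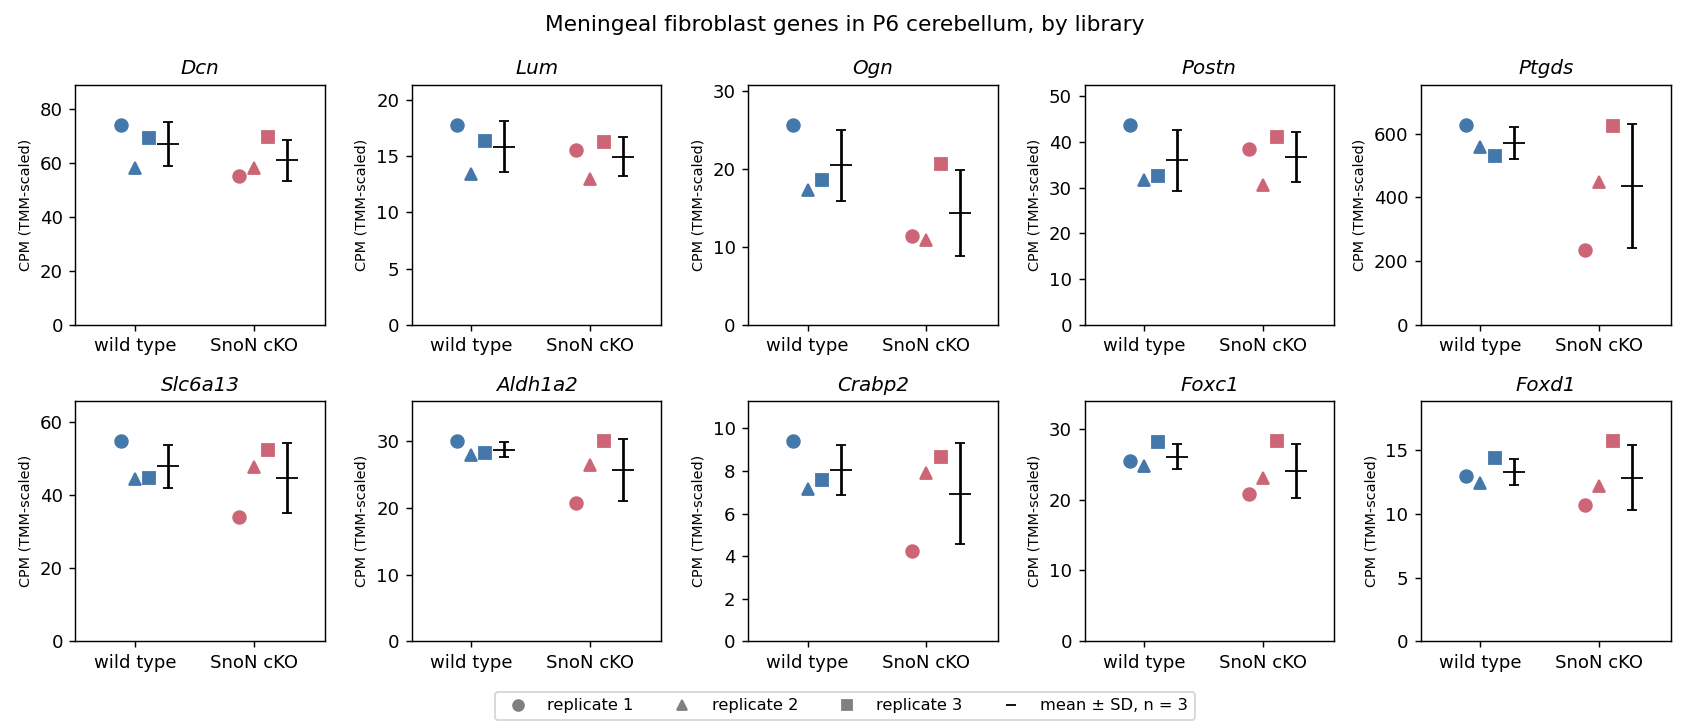
Level of each of the 10 genes in CPM (vertical axes, each starting at 0) in wild type (blue) and SnoN cKO (red) libraries, with symbols for replicates 1 to 3 and black bars for the mean ± SD of 3 libraries. SnoN cKO 1 (red circles) is the lowest library for 7 genes, while SnoN cKO 3 (red squares) lies within or above the wild type range for each gene.

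The first group of members encodes matrix proteins. Decorin, lumican and osteoglycin, the products of Dcn, Lum and Ogn, are small leucine-rich proteoglycans, which bind collagen fibrils, and decorin also binds transforming growth factor beta. Dcn was at 74.0, 58.0 and 69.1 CPM in wild type 1, 2 and 3, against 55.1, 58.1 and 69.4 CPM in SnoN cKO 1, 2 and 3. SnoN cKO 1 lay just below the lowest wild type library and the others lay inside the wild type range, and the fitted log2 difference was -0.13 (SE 0.10). Lum was at 17.8, 13.4 and 16.4 CPM in the wild type animals, against 15.6, 13 and 16.3 CPM in the knockouts. Here SnoN cKO 1 was level with wild type and SnoN cKO 2 was lowest, and the log2 fold change was -0.08 (SE 0.13).

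Ogn had the largest fitted difference of the 10 genes. It was at 25.6, 17.2 and 18.5 CPM in the wild type animals, against 11.4, 10.8 and 20.6 CPM in the knockouts. SnoN cKO 1 and 2 were both below every wild type library, and SnoN cKO 3 was above 2 of the 3. The log2 fold change of Ogn was -0.50 (SE 0.24), with an unadjusted p of 0.0621 and an adjusted p of 0.654 in edgeR. Within a library, the ratio of Ogn to Dcn in CPM was 0.207 in SnoN cKO 1 and 0.186 in SnoN cKO 2, against 0.267 to 0.346 in the other 4 libraries. The ratio of Lum to Dcn was 0.283 in SnoN cKO 1, against 0.224 to 0.241 elsewhere.

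Postn encodes periostin, a secreted protein that links collagen to other matrix proteins and is a known target of transforming growth factor beta in several tissues. It was at 43.7, 31.7 and 32.5 CPM in the wild type animals, against 38.4, 30.5 and 41.1 CPM in the knockouts. It was the only member with a positive log2 fold change, 0.03 (SE 0.13), and SnoN cKO 1 was among its higher libraries.

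The second group of members makes, binds or carries small molecules. Ptgds encodes the lipocalin-type prostaglandin D synthase, a secreted enzyme and lipid carrier of the leptomeninges, choroid plexus and oligodendrocytes. It was at 628, 558 and 530.1 CPM in wild type 1, 2 and 3, against 234, 449 and 623 CPM in SnoN cKO 1, 2 and 3. SnoN cKO 1 had less than any other library by a wide margin, at 40.9% of the wild type mean, while SnoN cKO 3 was at 109% of it. The log2 fold change was -0.39 (SE 0.26), with an adjusted p of 0.705 in edgeR. Without SnoN cKO 1 it was -0.09 (SE 0.13).

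Ttr of the choroid plexus and Mbp of myelin mark other known sources of Ptgds. In SnoN cKO 1, where Ptgds was lowest, Ttr was at its highest level, 3209 CPM, and Mbp was at 490.4 CPM against a wild type mean of 511 ± 5.23 CPM. In SnoN cKO 2, where Ttr was nearly absent and Mbp was lowest at 409 CPM, Ptgds was at 449 CPM. The share of Ptgds that each source gives was not tested.

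Slc6a13 encodes a transporter of GABA and taurine found in the arachnoid. It was at 54.7, 44.4 and 44.6 CPM in the wild type animals, against 33.9, 47.8 and 52.4 CPM in the knockouts, so SnoN cKO 1 alone was below the wild type range. Its log2 fold change was -0.09 (SE 0.14) with all libraries and 0.07 (SE 0.10) without SnoN cKO 1.

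Aldh1a2 encodes the main enzyme that makes retinoic acid in the meninges, and Crabp2 a protein that carries retinoic acid to its nuclear receptors. Aldh1a2 was at 30.0, 28 and 28.3 CPM in wild type, with the smallest spread relative to its mean of the 10 genes, and at 20.8, 26.4 and 30.0 CPM in SnoN cKO. Crabp2 was at 9.39, 7.17 and 7.56 CPM in the wild type animals, against 4.23, 7.92 and 8.68 CPM in the knockouts. In both genes SnoN cKO 1 was lowest, at 72.1% and 52.6% of the wild type mean. The log2 fold changes were -0.16 (SE 0.11) for Aldh1a2 and -0.19 (SE 0.23) for Crabp2, and became -0.03 and 0.05 without SnoN cKO 1. Crabp2 rested on the fewest reads, between 54 and 148 counts per library.

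The last members are forkhead transcription factors. Foxc1 is needed for the meninges to form, and its loss in mice leaves parts of the brain uncovered. Foxd1 marks mesenchyme of several organs. Foxc1 was at 25.4, 24.7 and 28.1 CPM in the wild type animals, against 20.8, 23.1 and 28.2 CPM in the knockouts. Foxd1 was at 13, 12.4 and 14.4 CPM in the wild type animals, against 10.7, 12.2 and 15.7 CPM in the knockouts. Both genes had SnoN cKO 1 lowest, SnoN cKO 2 next and SnoN cKO 3 highest of all 6 libraries. Their log2 fold changes were -0.11 (SE 0.11) and -0.03 (SE 0.14).

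**Figure D2:**
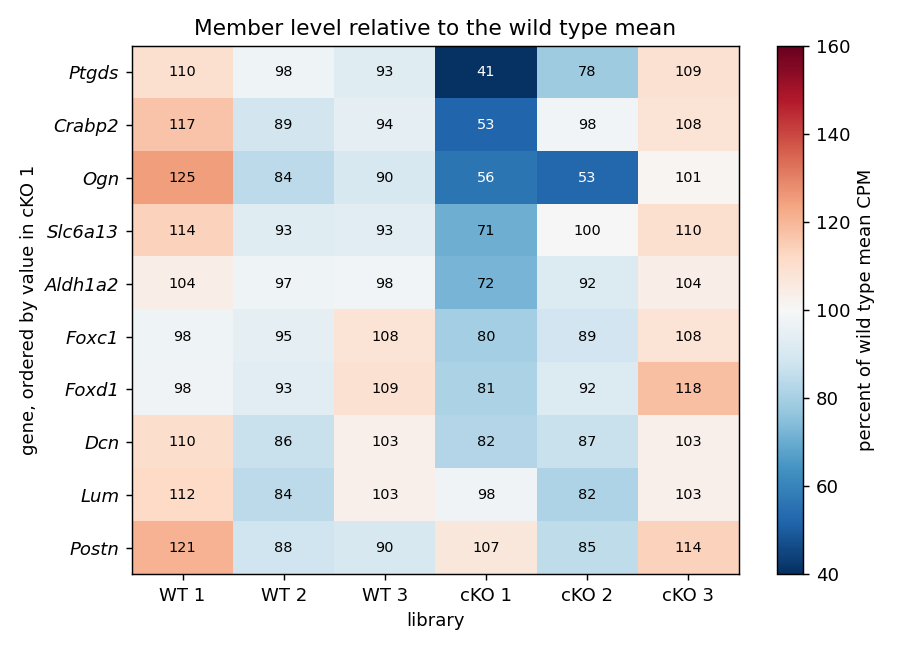
Level of each gene (rows) in each library (columns) as a percentage of the wild type mean CPM, ordered by the value in SnoN cKO 1, with WT for wild type and cKO for SnoN cKO. Values in SnoN cKO 1 run from 40.9% for Ptgds to 107% for Postn, and Ogn is the lowest member in SnoN cKO 2 at 53.0%.

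The members thus did not shift by a common factor in SnoN cKO 1. In that library 6 of 10 were under 80% of the wild type mean (7.74% of all genes), in the order Ptgds, Crabp2, Ogn, Slc6a13, Aldh1a2 and Foxc1. Foxd1 and Dcn followed just above, at 81.0% and 82.2%, and Lum and Postn were at 98.0% and 107%. In SnoN cKO 2 only Ogn and Ptgds were under 80% (12.5% of all genes), and in SnoN cKO 3 no member was (4.94% of all genes). Ptgds and Postn were the lowest and highest members in SnoN cKO 1, so by that choice their ratio would stand out there. The ratio of Ptgds to Postn in CPM was 6.09 in SnoN cKO 1, against 14.4 to 17.6 in the other libraries.

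Across the 6 libraries, which share the tissue and the TMM scaling, all 45 pairs of members had a positive Pearson correlation of log2 CPM, with a median of 0.744. The closest pairs were Ptgds with Aldh1a2 (r = 0.997) and Slc6a13 with Crabp2 (r = 0.982), followed by Foxc1 with Foxd1 (r = 0.965). The loosest was Ptgds with Postn (r = 0.079). With 6 libraries, a single one such as SnoN cKO 1 can set such values, and they are given as a description. The mean log2 CPM of the 10 genes was 0.48 below the wild type mean in SnoN cKO 1 and 0.23 below it in SnoN cKO 2, while SnoN cKO 3 was 0.11 above it. The wild type libraries lay at 0.15, -0.13 and -0.02. Its SD was 0.14 in wild type and 0.30 in SnoN cKO.

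Among 12287 other genes with a mean of at least 5 CPM, the 8 whose log2 CPM was most like that mean over the 6 libraries were Col6a2, Ston1, Tfpi, Fstl1, Sh3tc1, Olfml3, Tmem231 and Tmem64, with r between 0.979 and 0.99. Col6a2, a chain of collagen VI, was at 82.2, 63.1 and 72.8 CPM in the wild type animals, against 50.0, 62.9 and 78.8 CPM in the knockouts. Fstl1, a secreted glycoprotein of mesenchymal cells, was at 157, 146 and 149 CPM in the wild type animals, against 126, 134 and 154 CPM in the knockouts. A high r does not mean a drop of like size. Sh3tc1 was at 5.63, 5.51 and 5.53 CPM in the wild type animals, against 5.25, 5.41 and 5.69 CPM in the knockouts. All 8 were chosen for this likeness, so their pattern over the libraries is a description.

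Divided by transcript length, Ptgds was the most abundant member, at 635 ± 56.1 CPM per kilobase in wild type. Dcn and Slc6a13 followed at 38.1 ± 4.68 and 21.4 ± 2.64. Aldh1a2 and Postn were at 12.7 ± 0.484 and 11.3 ± 2.1 CPM per kilobase, and Crabp2, Ogn and Lum at 8.64 ± 1.27, 7.96 ± 1.76 and 6.5 ± 0.924. Aldh1a2 and Postn lay within their spread of each other, as did Crabp2, Ogn and Lum. The forkhead genes were lowest, Foxc1 at 4.46 ± 0.309 and Foxd1 at 2.62 ± 0.209. In SnoN cKO, Ptgds was at 483 ± 216 CPM per kilobase, still above every other member in every library. The lengths were those of the principal transcripts in GENCODE release M21, and the annotation used for counting may differ. With the union of all exons as length instead, Dcn was at 11.5 CPM per kilobase in wild type, below Slc6a13 at 16.5, and Postn at 4.13, below Foxc1.

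RefSeq promoter windows on GRCm38.p6 were matched by symbol for 7 of the 10 members, in 10 windows, and the 250 bases before each start were read. The files were made on another build, mm9, so these positions apply to GRCm38.p6 only. Ptgds, Slc6a13 and Aldh1a2 had Pearson correlations of log2 CPM of 0.915 to 0.997 with each other, and Postn of 0.079 to 0.255 with them. By rank (Spearman) these were 0.771 to 0.943 and 0.486 to 0.657, so the contrast was smaller. The first listed windows of these genes are shown on the strand of the gene. They lie at chr2:25469750-25469999 on the minus strand for Ptgds, and on the plus strand at chr6:121300038-121300287 for Slc6a13, chr9:71215539-71215788 for Aldh1a2 and chr3:54359017-54359266 for Postn. Capitals mark CAGAC or its reverse complement GTCTG, the short element to which Smad proteins bind.
Ptgds: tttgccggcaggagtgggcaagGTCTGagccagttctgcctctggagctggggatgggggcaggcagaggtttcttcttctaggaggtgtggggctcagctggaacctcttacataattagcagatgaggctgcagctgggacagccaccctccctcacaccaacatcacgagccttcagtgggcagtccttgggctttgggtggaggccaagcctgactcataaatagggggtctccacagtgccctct
Slc6a13: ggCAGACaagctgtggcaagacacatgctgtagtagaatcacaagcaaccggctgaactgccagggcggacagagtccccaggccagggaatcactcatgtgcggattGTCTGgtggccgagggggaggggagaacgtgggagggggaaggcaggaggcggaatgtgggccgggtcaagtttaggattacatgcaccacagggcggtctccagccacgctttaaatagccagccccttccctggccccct
Aldh1a2: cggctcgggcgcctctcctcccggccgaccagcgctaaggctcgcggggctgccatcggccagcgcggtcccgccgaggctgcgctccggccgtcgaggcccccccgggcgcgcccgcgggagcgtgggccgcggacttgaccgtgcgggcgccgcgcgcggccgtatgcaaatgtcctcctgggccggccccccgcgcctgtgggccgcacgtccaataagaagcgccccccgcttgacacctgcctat
Postn: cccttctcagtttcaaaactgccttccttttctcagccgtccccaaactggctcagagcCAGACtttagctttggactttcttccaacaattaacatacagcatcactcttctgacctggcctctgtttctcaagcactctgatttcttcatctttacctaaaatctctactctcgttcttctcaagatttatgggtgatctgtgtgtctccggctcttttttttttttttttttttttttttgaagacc
CAGAC on either strand was in 5 of the 10 member windows and in 42.2% of all 32851 windows. The Slc6a13 window held 2 matches, those of Ptgds and Postn 1 each and that of Aldh1a2 0. TAAACA, a forkhead core, was searched on both strands and found in 0 of 10 member windows and 12% of all. TATAAA on the gene's strand was in 2 of 10, those of Ogn and the second Postn window, and in 7.59% of all. The windows differed in base composition, from 40.4% G and C in the first Postn window to 77.6% in that of Aldh1a2. These matches describe the letters in the windows and are not evidence of binding.

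The genotype comparison of the members depended on single animals. Without SnoN cKO 1 the median log2 fold change of the 10 genes was -0.03, with 7 negative, and without wild type 1 it was -0.06. Without wild type 2 the median was -0.18 and all 10 were negative. In that fit 2 members had an unadjusted p under 0.05 in edgeR, as did 670 of 15529 genes. Without SnoN cKO 3 the median was -0.24, all 10 were negative, and 5 had an unadjusted p under 0.05, as did 9.68% of all genes in that fit. These were Ogn (log2 fold change -0.86), Ptgds (-0.74), Aldh1a2 (-0.28), Foxc1 (-0.24) and Dcn (-0.23), and 0 passed after adjustment in edgeR. With SnoN cKO 1 and 2 both left out, the median was 0.11 and 0 of 10 were negative. That alternative was chosen after the values were seen, and its single knockout library is assumed to vary like the wild type.

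**Figure D3:**
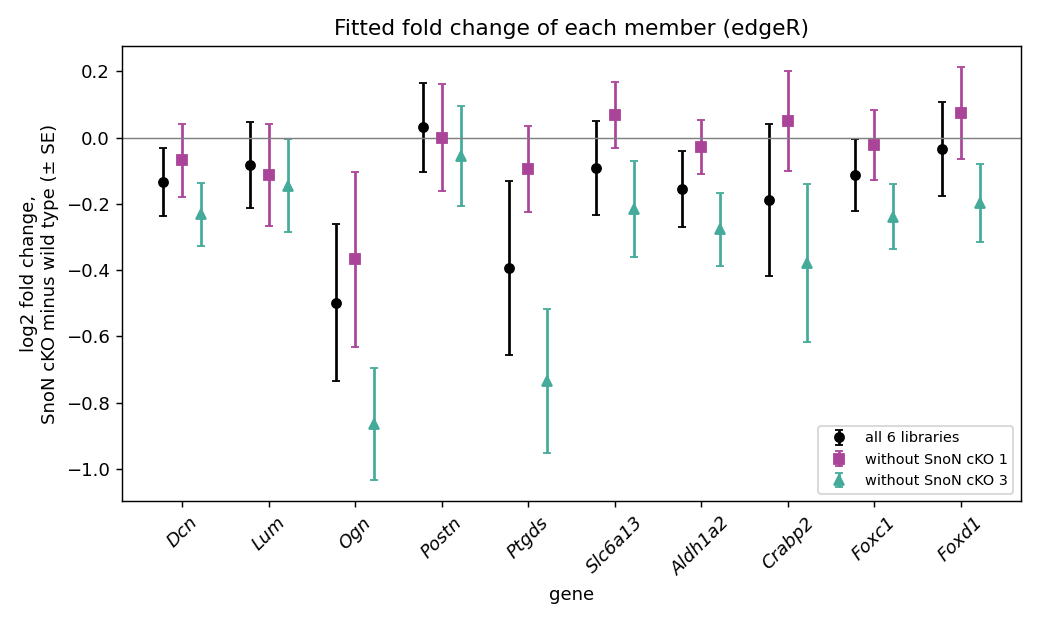
Log2 fold change of SnoN cKO over wild type for each gene from edgeR, with bars for the standard error, using all 6 libraries (black), without SnoN cKO 1 (purple) and without SnoN cKO 3 (green). Ogn moves from -0.50 to -0.37 without SnoN cKO 1 and to -0.86 without SnoN cKO 3, and Ptgds from -0.39 to -0.09 and -0.74.

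Of a list of 40 other genes of meningeal fibroblasts, 38 passed the filter. Of these, 33 were negative (51.0% of all genes) and 5 positive in log2 fold change, the median being -0.16 against 0.00 for all genes tested. In edgeR, 5 had an unadjusted p under 0.05 (7.68% of all genes) and 0 passed after adjustment. Col1a1, which encodes a chain of collagen I, was at 215, 169.7 and 202 CPM in the wild type animals, against 158, 162 and 167 CPM in the knockouts. Each knockout library was below each wild type library, as for 6.73% of all genes. The log2 fold difference of Col1a1 was -0.27 (SE 0.08), with an adjusted p of 0.637 in edgeR. Its partner chain Col1a2 had a log2 fold difference of -0.22 (SE 0.09), as did Cldn11 (-0.22, SE 0.09), a claudin of arachnoid and oligodendrocyte tight junctions. Serpinf1, which encodes a secreted inhibitor of blood vessel growth, had a log2 fold difference of -0.21 (SE 0.09).

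These genes also differed in how low they were in SnoN cKO 1. Of the 38, 22 were lowest in that library (13.7% of all genes) and 16 were under 80% of the wild type mean there (7.74% of all genes). Nov, Slc47a1 and Wnt6, named after their values were seen, were at 22.9%, 27.1% and 39.0%. Nov encodes a secreted matricellular protein, Slc47a1 an exporter of organic cations and Wnt6 a secreted Wnt ligand. Nov was at 7.44 CPM in SnoN cKO 1 and at 22 and 37.7 CPM in SnoN cKO 2 and 3, against 29.5 to 37.8 CPM in wild type. Toward the other end, with genes also picked after their values were seen, Spp1 was highest in SnoN cKO 1, at 126% of the wild type mean. The platelet-derived growth factor receptor gene Pdgfra, Cxcl12, Ngfr and S100a6 were at 95.9%, 103%, 105% and 100.5% there. Which cells gave these transcripts was not tested.

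**Figure D4:**
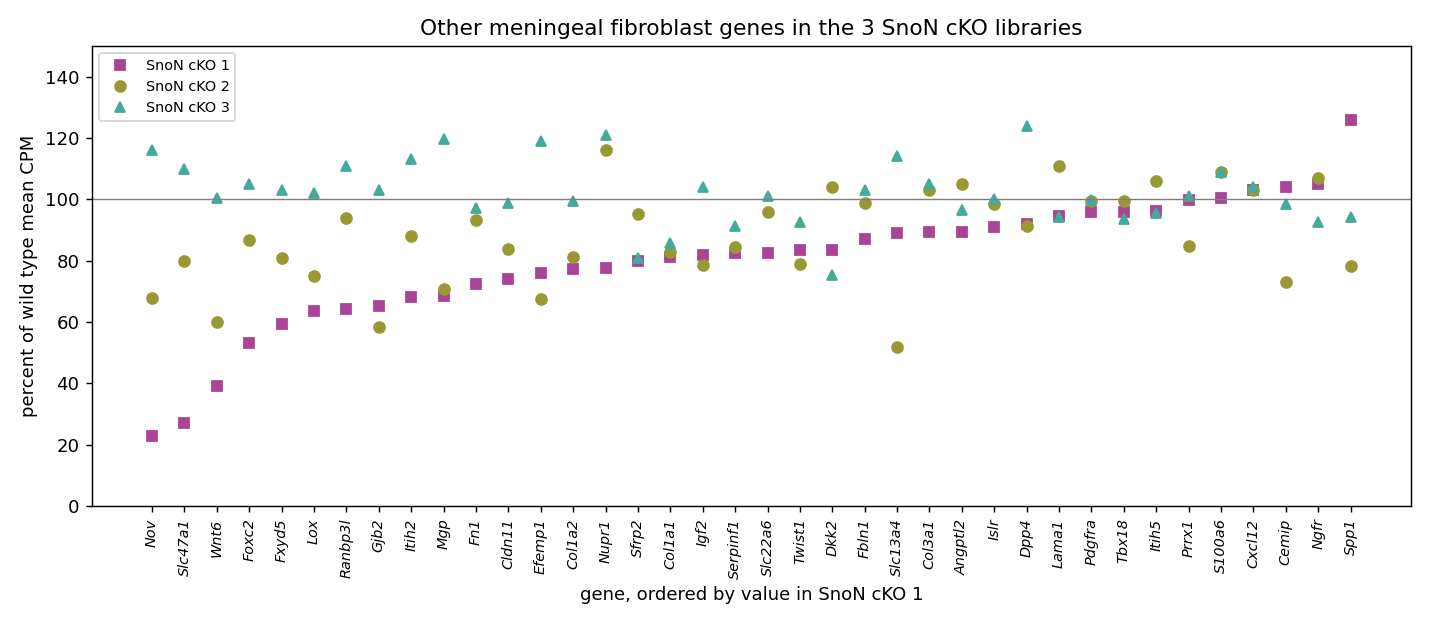
Level of 38 other meningeal fibroblast genes in SnoN cKO 1 (purple squares), 2 (olive circles) and 3 (green triangles) as a percentage of the wild type mean CPM, ordered by SnoN cKO 1. SnoN cKO 1 runs from 22.9% for Nov to 126% for Spp1, while SnoN cKO 3 has 1 gene under 80%.

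Pathway relatives of the members were read from lists. Of 12 further small leucine-rich proteoglycan and related genes, 8 passed the filter, 6 of them negative and 2 positive in log2 fold change, the median being -0.08, and 0 past the adjusted threshold in edgeR. Fmod, which encodes the collagen-binding fibromodulin, was at 31.1, 23.6 and 22.8 CPM in the wild type animals, against 13, 14.8 and 24.5 CPM in the knockouts, so SnoN cKO 1 and 2 were both low, as for Ogn. Its log2 fold change was -0.55 (SE 0.21). Chadl, Prelp and Aspn had log2 fold changes of -0.24, -0.28 and 0.20.

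The retinoic acid pathway beyond Aldh1a2 and Crabp2 had 15 of 17 genes past the filter, 9 negative and 6 positive, with a median log2 fold change of -0.04 and 0 past the adjusted threshold in edgeR. Crabp1, a second cellular carrier of retinoic acid, was at 4.3, 8.04 and 3.74 CPM in the wild type animals, against 2.04, 1.15 and 5.16 CPM in the knockouts, and the log2 fold difference was -0.92 (SE 0.46). The receptors Rarb and Rxra had log2 fold changes of -0.22 and 0.08. As a list these genes were level with wild type in SnoN cKO 1, at a median of 101% of the wild type mean, where Aldh1a2 and Crabp2 were lowest.

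Of 14 prostaglandin pathway genes past the filter, 7 were negative and 7 positive, with a median of 0.02 and 0 past the adjusted threshold in edgeR. Ptgfr, a prostaglandin F receptor, had a log2 fold difference of -0.56 (SE 0.25), the receptors Ptger3 and Ptger4 of -0.38 and 0.36. Hpgds, the other prostaglandin D synthase, had a log2 fold change of -0.16 (SE 0.13). Neither it nor the receptors had an adjusted p under 0.653.

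The 4 related GABA and taurine transporter genes were all negative in log2 fold change, the median being -0.13, with 0 past the adjusted threshold in edgeR. Slc6a12, which encodes a transporter of betaine and GABA, was at 9.86, 8.17 and 8.11 CPM in the wild type animals, against 4.31, 8.59 and 9.15 CPM in the knockouts, so SnoN cKO 1 alone was low, as for Slc6a13. Slc6a11 and Slc6a6 had log2 fold changes of -0.29 and -0.03. Of 6 relatives and matrix partners of periostin, 4 were negative and 2 positive, with a median of -0.12 and 0 past the adjusted threshold. Fn1, Lox, Tgfbi and Tnc had log2 fold changes of -0.19, -0.31, -0.19 and 0.07. Fn1 and Lox are also on the list of meningeal genes.

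Markers of vessels and choroid plexus were not low in SnoN cKO 1, while the median over those of brainstem was below the wild type range. Of the brainstem genes, Hoxa2 was at 79.1% of the wild type mean in SnoN cKO 1, inside its wild type range of 37.3% to 159%. In that library the median over the members was 75.8% of the wild type mean and over the other meningeal genes 82.5%, against 99.9% over all genes tested. Pericyte and smooth muscle genes were at a median of 100.2%, endothelial genes at 99.9% and choroid plexus and ependyma genes at 113%. None of the 11 pericyte, 10 endothelial or 14 choroid plexus genes was under 80% there (7.74% of all genes). Oligodendrocyte genes were at 91.0% in SnoN cKO 1, where 4 of 12 were under 80%, and at 80.6% in SnoN cKO 2, and share Cldn11 with the meningeal list. The 14 choroid plexus genes summed to 67.7 CPM in SnoN cKO 2, against 1856 to 3560.4 CPM elsewhere.

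Brainstem genes were at a median of 44.1%, 17.0% and 81.0% of the wild type mean in SnoN cKO 1, 2 and 3, and red blood cell genes at 71.3%, 75.9% and 114%. In wild type 1, 2 and 3 the brainstem genes were at 98.1%, 137% and 61.3% and the red blood cell genes at 60.1%, 109% and 133%, so wild type 1, where the members were highest, had the lowest red blood cell level. The 15 brainstem and midbrain genes summed to 63.5, 77.9 and 54.9 CPM in wild type and to 46.4, 39.3 and 61.6 CPM in SnoN cKO. Most of each sum came from Slc6a5, at 45.6, 54.1 and 42.6 CPM in wild type and 36.9, 34.4 and 48.9 CPM in SnoN cKO. Brainstem genes were thus lowest in SnoN cKO 2, as 3 of the members were, whereas 7 members were lowest in SnoN cKO 1. All 8 brainstem genes that passed the filter were under 80% of the wild type mean in both SnoN cKO 1 and 2 (7.74% and 12.5% of all genes). Most of the 8 rested on few reads, such as Gata3 at 2 to 16 counts per library and Hoxb3 at 0 to 35. Slc6a5 had 471 to 833 counts. Cartilage and bone genes summed to between 159 and 223 CPM, with the highest value in wild type 3. Most of this came from Sox9, at 68.6 to 77.2 CPM, and Col2a1, at 59.9 to 100.3 CPM. Skeletal muscle genes summed to between 16.2 and 23.2 CPM and red blood cell genes to between 28.2 and 63.8 CPM. No marker on these lists that was found in the table was at 0 in all libraries. The part of brainstem, blood or other attached tissue in the members' differences was not tested.

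**Figure D5:**
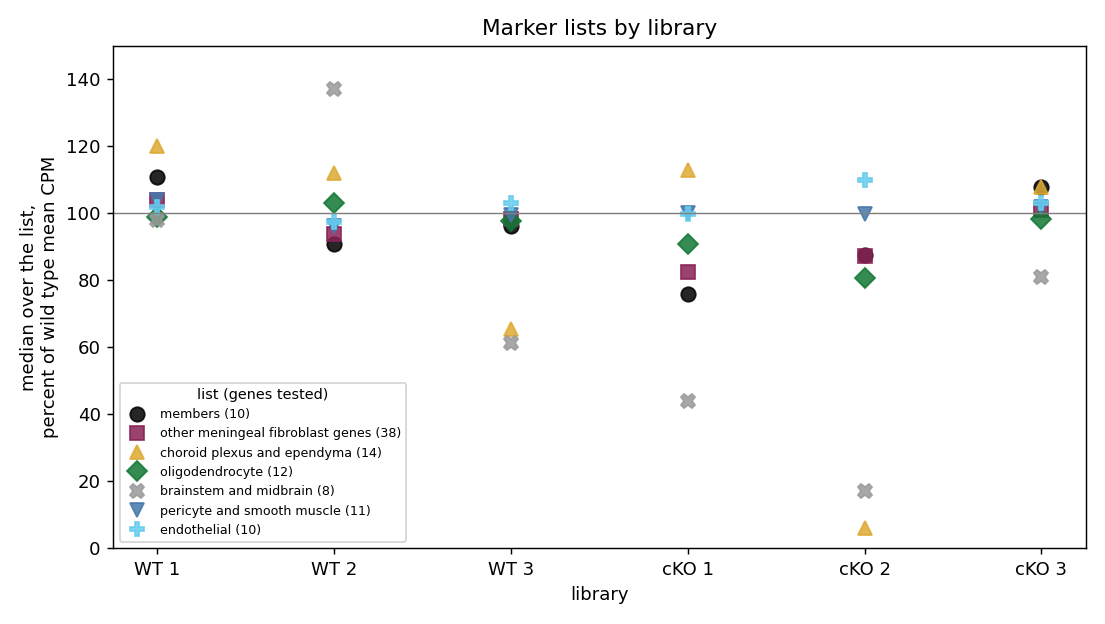
Median level over each marker list as a percentage of the wild type mean CPM (vertical axis) in each of the 6 libraries (horizontal axis), with WT for wild type and cKO for SnoN cKO. In cKO 1 the members and the other meningeal genes are at 75.8% and 82.5%, brainstem is at 44.1%, and in cKO 2 the choroid plexus list is at 6.07%.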

How the data were processed

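RNA of 6 cerebellum samples, taken as separate animals from their tags, was sequenced as single-end reads with a kit that does not mark strand. The deposited values are the authors' raw counts of reads, and STAR 2.0.4b, Subread and featureCounts 1.4.5 with mm9 are named per the submitters' processing notes. The gene annotation is not given in the sources used here. Genes were taken by symbol, because of 40254 identifiers found in GENCODE M21 only 97 matched the symbol of their row, whereas Xist and the Y-linked symbols separated the libraries cleanly. Repeated symbols with equal counts (140 entries, 0.465% of counts) were kept once. Entries without an identifier (594) were kept.

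One test of genotype was fitted to all genes with edgeR 4.0.16 in R 4.3.3 (quasi-likelihood, two-sided, TMM, filterByExpr at a minimum count of 10), with Benjamini-Hochberg adjustment at 0.05. limma 3.58.1 and DESeq2 1.42.0 were alternatives. An exact permutation of 3 against 3 cannot reach 0.05 and was not used. The fit was tested on simulated data. All pairs of libraries differed beyond sampling noise (lowest chi-square per degree of freedom 2.67). P-values set the genotype difference of a gene against the spread between these animals, which is estimated in part from all genes. The members and lists were chosen with earlier results of these data known. The rule for named genes took all members, up to 4 genes per pathway or meningeal list with the smallest p, and the 8 genes most like the members. Some genes that this rule takes are not reported here. Any other gene was picked once its values had been seen. Alternatives were RLE scaling, no filter, sex as covariate, a replicate block and leaving out each library. Sex by Xist and Y-linked counts and leaving out SnoN cKO 1 and 2 together were chosen after seeing the data.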

Additional observations from a re-analysis of the deposited data

How the results depend on the processing

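No member passed the adjusted threshold under any of 14 alternatives, where the lowest adjusted p of a member was 0.274 (Ogn, no filter). Of all genes tested, 0 were called with all libraries (1187 at an unadjusted p under 0.05, and 0 called by limma-voom) and 0 with any 1 library left out. DESeq2 called 6 genes, no filter 39, the labelled sex as covariate 1, and the fit without SnoN cKO 1 and 2 together, chosen after seeing the data, 7. The cause was not tested. The members' median log2 fold change was -0.12, ranged from -0.24 to -0.03 with 1 library left out, and was 0.11 without SnoN cKO 1 and 2. Without both, Dcn was at 0.05, Lum 0.04, Ogn 0.02, Slc6a13 0.13, Foxc1 0.11, Foxd1 0.24, Ptgds 0.12, Aldh1a2 0.06 and Crabp2 0.11. Single libraries also reversed small differences. Lum was at 0.01 without wild type 1 and 0.01 without SnoN cKO 2, Slc6a13 at 0.01 without wild type 1 and 0.07 without SnoN cKO 1, and Crabp2 at 0.05 without SnoN cKO 1. Foxd1 was at 0.03 without wild type 3, 0.08 without SnoN cKO 1 and 0.01 without SnoN cKO 2. Postn was at -0.05 without wild type 2, -0.03 without wild type 3, 0.00 without SnoN cKO 1 and -0.06 without SnoN cKO 3. Of 140 values of members under alternatives, 119 kept their direction and side of the threshold.

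Same-numbered samples did not deviate together (correlations -0.04, -0.324 and -0.183), so the numbers were not taken as a pairing. The largest correlation was 0.39, between wild type 2 and SnoN cKO 3. With 3 animals per group, such values cannot settle whether animals were paired. With the replicate block 0 genes were called and the members' median was -0.13. Crabp2, with 54 to 148 counts, is the member that depth limits most.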
